A study of Mus musculus with 6 samples.

Results

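Ribosome biogenesis and rRNA processing was followed through 48 listed mouse genes, of 47643 gene IDs in the count tables. The members are the proteins of small nucleolar ribonucleoprotein particles (snoRNPs), subunits and a factor of RNA polymerase I, proteins of RNase MRP and RNase P, assembly factors of the small and of the large ribosomal subunit, general nucleolar proteins, and the transcription factor gene *Myc*. The list is one of gene names and sets no limit on measured values, though it was drawn up with earlier results of these data known. All 48 were found in the files and passed the filter of at least 1 count in at least 2 libraries, as did 15792 genes in all.

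The libraries came from mouse submandibular salivary gland organoids (mSGOs), structures that dissociated adult gland cells form in Matrigel. Organoids of 3 female C57BL/6 mice, 8-12 weeks old, were taken at day 5 and at day 7 of culture. Each mouse thus gave 1 library a day, and each day had n = 3. All organoids were non-irradiated and untreated, and grew in the same WRY medium with Wnt3a- and R-spondin1-conditioned medium, EGF, FGF2, insulin, dexamethasone and Y27632. Polyadenylated RNA was read at its 3′ end by QuantSeq, so a count does not grow with the length of the transcript.

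Values are given as counts per 1000000 (CPM), scaled by the TMM method, and fold changes as log2 of day 7 over day 5 with their standard error (SE). To pass the threshold, and so to be called, a gene needed an edgeR adjusted p under 0.05 and a log2 fold change above 0.6 or below -0.6. The libraries held 1918198 to 2837397 counts in genes. Between 13.7% and 14.4% of reads at day 5 and between 9.12% and 9.74% at day 7 were assigned to no gene, and the part of this share in the results was not tested. The sums over marker lists in this paragraph were scaled by library totals only, without TMM. They thus differ in scale from the CPM of single genes given below. The 6 epithelial markers of the gland (*Epcam*, *Cdh1*, *Krt5*, *Krt14*, *Krt8* and *Krt18*) summed to 13707 to 18049 CPM at day 5 and 10538 to 14106 CPM at day 7. Of the markers of other cells, 8 of 10 for macrophages, 2 of 8 for endothelium, 3 of 8 for fibroblasts and 5 of 6 for erythroid cells had no count in any library. The macrophage list summed to 0.377 to 1.67 CPM at day 5 and 3.25 to 6.50 CPM at day 7, the fibroblast list to 0.377 to 0.521 CPM and 1.81 to 2.79 CPM. Only 1 of the 10 macrophage markers, *Cd68*, passed the filter, with 4, 2 and 1 counts at day 5 and 8, 17 and 14 at day 7. The cycling cell markers *Mki67* and *Top2a* summed to 1013 to 1169 CPM at day 5 and 372 to 543 CPM at day 7. In bulk libraries, fewer cells of a type and less RNA per cell cannot be told apart.

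Ribosomes are made in the nucleolus, where RNA polymerase I transcribes the long precursor of the 18S, 5.8S and 28S rRNAs. snoRNPs modify that precursor, RNase MRP and the exosome cut and trim it, and a large set of assembly factors folds it with ribosomal proteins into the small and the large subunit. Growing and dividing cells spend much of their transcription on this pathway, and MYC is a well known activator of many of its genes.

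At day 7, 21 of the 48 members had fallen past the threshold in edgeR and 0 had risen. DESeq2 and limma voom also called 0 higher, and 1 member, *Imp3*, was higher with an unadjusted p under 0.05. The background over all genes tested was 4.82% lower and 7.22% higher. Of the members, 46 had a mean of at least 10 CPM, a level chosen after the values were seen, and at that level 7.56% of genes fell past the threshold. *Rpp25* had 1 count at each day, below the limit of 3 counts, so it gets no fold change. Among the other 47 members, 43 had a log2 fold change below 0, against 50.4% of all genes tested. Their median was -0.71 (all genes tested, -0.01), from -1.94 for *Pop1* to 0.45 for *Imp3*.

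The day 7 values lay below all day 5 values in 31 of these members (15.5% of all genes tested, and 20.0% of those with a mean of at least 10 CPM). In 1 member, *Imp3*, they lay above, and in 15 the days overlapped. In 33 members the day 7 library was lower than the day 5 library of the same mouse in all 3 mice, against 21.4% of all genes tested. The 21 called members belonged to both counts, and 12 of them had a day 7 mean under 50% of the day 5 mean. An unadjusted edgeR p under 0.05 was found for 33 members, and the share of all genes tested under it was not computed.

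**Figure D1:**
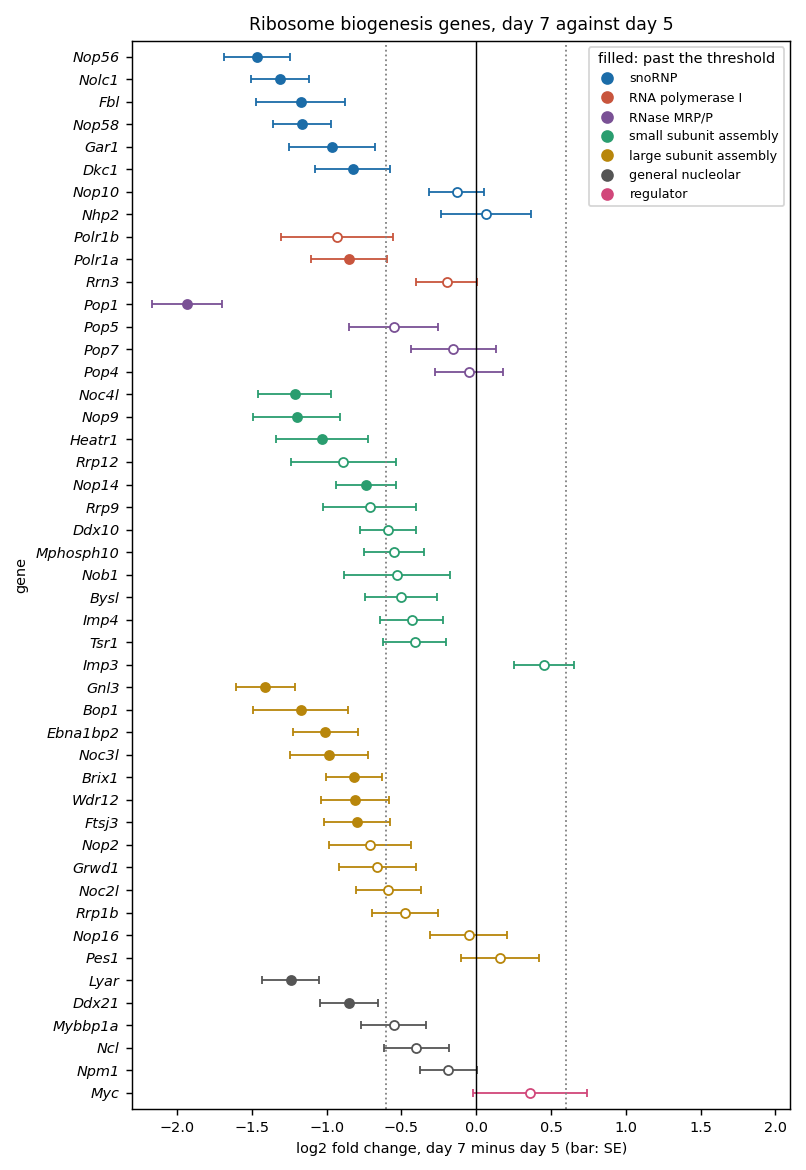
Log2 fold change of day 7 over day 5 with SE (horizontal axis) for the 47 members above 3 counts, ordered by class and by size, with filled points for the 21 members past the threshold and dotted lines at -0.6 and 0.6. The filled points all lie to the left of -0.6, and only *Imp3*, *Myc*, *Pes1* and *Nhp2* lie to the right of 0.

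Calls were found in every class except that of the regulator *Myc*. Of the snoRNP proteins 6 of 8 were called (median log2 fold change -1.07), of the RNA polymerase I genes 1 of 3 (-0.85), of the RNase MRP and P proteins 1 of 5 (-0.35 without *Rpp25*). Of the small subunit factors 4 of 13 were called (-0.59), of the large subunit factors 7 of 13 (-0.79), of the general nucleolar proteins 2 of 5 (-0.55). With 1 call each, the RNA polymerase I class and the RNase MRP and P class cannot be set apart from the background. The differences between classes were not tested. Summed over all 48 members, mRNA stood at 9073, 8543 and 8016 CPM in mice 1, 2 and 3 at day 5 and at 4960, 5959 and 6976 CPM at day 7, which is 69.8% of the day 5 mean. *Ncl* and *Npm1* made up much of that sum, and without them the members stood at 60.2%. By class, the day 7 sum was 51.8% of day 5 for RNase MRP and P, 55.02% for snoRNPs, 58.2% for large subunit factors, 73.4% for RNA polymerase I, 74.6% for small subunit factors and 76.7% for the general nucleolar proteins. The RNase MRP and P sum was carried by *Pop1*, with 102 of 177 CPM at day 5, and without *Pop1* it was 75.1 CPM at day 5 and 64.9 CPM at day 7, or 86.3%.

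The snoRNP proteins hold the enzymes that modify rRNA. In box C/D particles, which methylate riboses, *Fbl* encodes the methyltransferase fibrillarin and *Nop56* and *Nop58* encode its scaffold. *Nop56* (chr2:130115808-130121238, plus strand, GRCm39) stood at 119, 121 and 134 CPM at day 5 and at 32.6, 45.8 and 57.3 CPM at day 7 in mice 1, 2 and 3. The highest day 7 value was below every day 5 value (log2 fold change -1.47, SE 0.22, edgeR adjusted p = 0.000246). *Nop58* stood at 451, 440.3 and 456 CPM at day 5 and 162, 197 and 242 CPM at day 7. The day 5 libraries lay close together and the day 7 libraries spread more, again with no overlap (-1.17, SE 0.19, edgeR adjusted p = 0.000612). *Fbl* went from 30.9, 29.6 and 37.5 CPM to 18.0, 17.4 and 7.34 CPM (-1.17, SE 0.30, edgeR adjusted p = 0.0138). Here mouse 3, the highest at day 5, was the lowest at day 7. These 3 box C/D members were thus called. *Snu13*, which encodes the other core protein and is not a member, had -0.83 (SE 0.29, edgeR adjusted p = 0.0726), with no overlap between the days and no call.

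In box H/ACA particles, which turn uridine into pseudouridine, *Dkc1* encodes the enzyme dyskerin and *Gar1*, *Nhp2* and *Nop10* its partners. *Dkc1* stood at 409, 388 and 376 CPM at day 5 and at 156, 163 and 344 CPM at day 7. Mice 1 and 2 fell far and mouse 3 little, so that the SD was 16.6 CPM at day 5 and 106 CPM at day 7 (log2 fold change -0.83, SE 0.25, edgeR adjusted p = 0.0388). The call held in 1 of 6 fits with a library left out, that without day 7 mouse 3 (-1.29), and the adjusted p reached 0.189 in the others. In *Gar1* it was mouse 3 that fell most, with 47.0, 47.2 and 50.1 CPM at day 5 and 33.4, 27.8 and 11.7 CPM at day 7 (-0.97, SE 0.29, edgeR adjusted p = 0.0341). It was past the threshold without day 7 mouse 1 or day 7 mouse 3 and not without any of the other 4 libraries.

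*Nhp2* and *Nop10* were not called. *Nhp2* had 40.4, 45.7 and 46.1 CPM at day 5 and 28.4, 33.3 and 78.3 CPM at day 7, so that mouse 3 rose where mice 1 and 2 fell (0.07, SE 0.30). Without day 7 mouse 3 its log2 fold change was -0.51. *Nop10* had 197, 209 and 236 CPM at day 5 and 224, 181 and 182 CPM at day 7, overlapping ranges (-0.13, SE 0.19). *Nolc1* (chr19:46064234-46073983, plus strand), which encodes the chaperone Nopp140 that binds both kinds of snoRNP, had the smallest p of the class. It stood at 207, 214 and 196 CPM at day 5 and at 78.6, 71.9 and 98.4 CPM at day 7, or 40.3% (-1.31, SE 0.19, edgeR adjusted p = 0.000213).

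**Figure D2:**
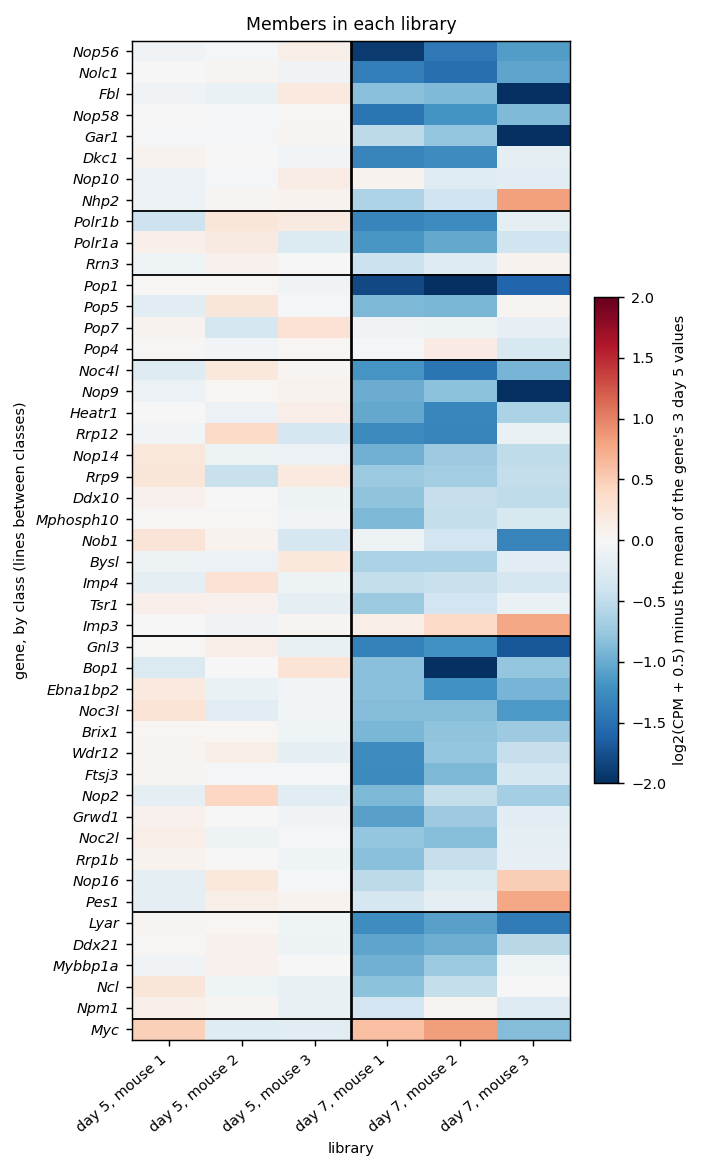
Each member (rows, by class) in each library (columns, day 5 left and day 7 right), as log2(CPM + 0.5) minus the mean of the gene's 3 day 5 values, blue for lower and red for higher. Day 7 is blue in most rows, most evenly in mice 1 and 2, while mouse 3 is pale or red in rows such as *Nhp2*, *Pes1*, *Nop16* and *Dkc1* and the darkest in *Fbl*, *Gar1* and *Nop9*.

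RNA polymerase I makes the rRNA precursor. *Polr1a*, its largest subunit, stood at 51.1, 54.2 and 39.3 CPM at day 5 and 21.1, 23.3 and 36.2 CPM at day 7. The day 7 value of mouse 3 came close to its own day 5 value, and the groups did not overlap (-0.85, SE 0.25, edgeR adjusted p = 0.0335). Its call held only without day 7 mouse 3, with an adjusted p of up to 0.178 in the other leave-one-out fits. *Polr1b*, the other large subunit of the core, had a log2 fold change of similar size (-0.93, SE 0.37, edgeR adjusted p = 0.115), at a mean of 12.6 CPM at day 5 and 6.74 CPM at day 7. *Rrn3*, which encodes the initiation factor TIF-IA that recruits the polymerase, had 73.0, 82.8 and 78.2 CPM at day 5 and 57.5, 64.9 and 82.2 CPM at day 7. Mouse 3 was above its day 5 value and the other two were below theirs (-0.20, SE 0.20, edgeR adjusted p = 0.59).

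RNase MRP cuts the rRNA precursor and RNase P trims the 5′ end of tRNAs, and the enzymes share most of their proteins. *Pop1* (chr15:34495449-34530794, plus strand), their largest protein, had the largest fall and the smallest p of all members. It stood at 104, 105 and 97.6 CPM at day 5 and at 28.8, 18.1 and 33.8 CPM at day 7, or 26.3%. Each mouse fell by more than the whole spread within a day (-1.94, SE 0.24, edgeR adjusted p = 2.64e-05), and the estimate ran from -2.13 to -1.71 when each library was left out. The other proteins of the enzymes moved less. *Pop5* had a log2 fold change of -0.55 (SE 0.30), *Pop7* of -0.15 (SE 0.28) and *Pop4* of -0.05 (SE 0.23), none past the threshold. *Pop4* had 36.3, 34.1 and 36.4 CPM at day 5 and 34.5, 39.9 and 28.4 CPM at day 7. For *Pop4* and *Pop7* the sign depended on the libraries, with up to 0.06 without day 7 mouse 3 and 0.01 without day 5 mouse 3. *Rpp25* was at or below 0.360 CPM in every library.

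The small subunit factors act mostly in the SSU processome, the particle that forms on the precursor of 18S rRNA. *Noc4l* (chr5:110796284-110801290, minus strand), the partner of *Nop14*, had the smallest p of the class. It had 39.2, 54.2 and 48.6 CPM at day 5 and 20.3, 16.7 and 24.5 CPM at day 7, with no overlap (-1.21, SE 0.24, edgeR adjusted p = 0.00279). *Nop14* itself went from 135, 107 and 106 CPM to 59.1, 69.4 and 80.8 CPM (-0.74, SE 0.20, edgeR adjusted p = 0.0217). So both proteins of that complex were called, with a smaller estimate for *Nop14*. *Nop9*, an RNA-binding factor of 18S maturation, had 31.3, 35.1 and 36.0 CPM at day 5 and 16.9, 19.1 and 7.83 CPM at day 7 (-1.20, SE 0.29, edgeR adjusted p = 0.0101), lowest in mouse 3. *Heatr1*, the homolog of yeast Utp10 that also promotes transcription of rRNA, went from 15.3, 14.1 and 16.9 CPM to 7.29, 5.90 and 9.79 CPM (-1.03, SE 0.31, edgeR adjusted p = 0.0362). *Heatr1* lost its call with DESeq2 (adjusted p = 0.0762, the largest over its alternatives) and with limma voom (adjusted p = 0.051).

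In the trimer of *Imp3*, *Imp4* and *Mphosph10*, which helps U3 snoRNA pair with the precursor, no gene was called. *Mphosph10* had a log2 fold change of -0.55 (SE 0.20) and *Imp4* of -0.43 (SE 0.21), each with day 7 below day 5 in all libraries. *Imp3* (chr9:56844722-56850236, plus strand) had 122, 114 and 126 CPM at day 5 and 132, 158 and 207 CPM at day 7. It was the only member with every day 7 value above every day 5 value (0.45, SE 0.20, edgeR adjusted p = 0.158), and it did not pass the threshold.

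*Ddx10*, an RNA helicase, came closest to a call, with 184, 173 and 161 CPM at day 5 and 98.2, 125 and 121 CPM at day 7. The days did not overlap and the edgeR adjusted p was 0.0478, and it missed the threshold by its log2 fold change of -0.59 (SE 0.19). The remaining small subunit factors were lower and not called, with log2 fold changes of -0.89 for *Rrp12*, which exports the particle, -0.71 for *Rrp9*, which binds U3 snoRNA, -0.53 for *Nob1*, the nuclease of the last 18S cut, -0.50 for *Bysl* and -0.41 for *Tsr1*, which act on the late particle. Of these, *Rrp9* and *Bysl* had no overlap between the days.

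The large subunit factors build the 60S particle around 28S and 5.8S rRNA. *Gnl3* (chr14:30734389-30741364, minus strand), which encodes the GTPase nucleostemin, known from stem cells and proliferating cells, had the smallest p of the class. It stood at 263, 283 and 232 CPM at day 5 and at 101, 111 and 79.8 CPM at day 7, or 37.5% (-1.41, SE 0.20, edgeR adjusted p = 0.00012). Every mouse fell by a similar factor. *Ebna1bp2*, an early assembly factor, went from 76.7, 60.8 and 64.1 CPM to 37.2, 28.5 and 34.8 CPM (-1.01, SE 0.22, edgeR adjusted p = 0.00454). *Brix1*, which helps to form the early particle, went from 116, 116 and 106 CPM to 59.5, 64.2 and 68.05 CPM (-0.82, SE 0.19, edgeR adjusted p = 0.00778). Day 5 and day 7 were far apart and tight in *Brix1*, with SDs of 5.79 and 4.31 CPM.

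The PeBoW complex of *Pes1*, *Bop1* and *Wdr12*, needed to process 28S and 5.8S rRNA, had 2 calls. *Bop1* had 22.7, 28.1 and 33.9 CPM at day 5 and 15.3, 6.60 and 16.2 CPM at day 7 (-1.17, SE 0.32, edgeR adjusted p = 0.0204), and *Wdr12* had 82.1, 85.9 and 69.9 CPM at day 5 and 32.6, 45.8 and 57.3 CPM at day 7 (-0.81, SE 0.23, edgeR adjusted p = 0.0242). *Pes1* had 54.9, 67.3 and 65.6 CPM at day 5 and 49.1, 54.9 and 107 CPM at day 7. It was lower in mice 1 and 2 and higher in mouse 3 (0.16, SE 0.26), and without day 7 mouse 3 the estimate was -0.27. The difference between *Pes1* and its partners was not tested, and *Wdr12* kept its call in 1 of 6 fits with a library left out. *Noc3l*, which forms a complex with *Noc2l* in the nucleolus, went from 33.4, 23.6 and 26.7 CPM to 14.96, 14.9 and 12.2 CPM (-0.98, SE 0.26, edgeR adjusted p = 0.0187), while *Noc2l* had -0.59 (SE 0.22, edgeR adjusted p = 0.0879). *Ftsj3*, an rRNA methyltransferase, went from 186, 175 and 175 CPM to 73.6, 95.1 and 141 CPM (-0.79, SE 0.22, edgeR adjusted p = 0.024).

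Among the large subunit factors without a call, *Nop2*, the methyltransferase that marks cytosine in 28S rRNA, had a log2 fold change of -0.71, the histone-binding factor *Grwd1* -0.66, *Rrp1b* -0.48 and *Nop16* -0.05. In *Nop2*, *Grwd1* and *Rrp1b* the days did not overlap. *Nop16* had 36.7, 48.7 and 41.4 CPM at day 5 and 29.2, 34.7 and 59.2 CPM at day 7, with mouse 3 again above its day 5 value, and its sign changed in 3 of the leave-one-out fits.

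The general nucleolar proteins were read with many counts. *Lyar* (chr5:38377305-38391741, plus strand), a nucleolar zinc finger protein of growing cells, stood at 163, 161 and 147 CPM at day 5 and 66.0, 73.3 and 59.2 CPM at day 7, or 42.2% (-1.24, SE 0.19, edgeR adjusted p = 0.000303). *Ddx21*, an RNA helicase that couples transcription and processing of rRNA, stood at 492, 518 and 451 CPM and at 232, 247 and 331 CPM (-0.85, SE 0.19, edgeR adjusted p = 0.00699). Both fell in every mouse, with no overlap. *Ncl*, nucleolin, had 2612, 2093 and 1998 CPM at day 5 and 1258, 1595 and 2227 CPM at day 7. Mouse 3 did not fall, and the ranges overlapped (-0.40, SE 0.22, edgeR adjusted p = 0.261). *Npm1*, nucleophosmin, had 1834, 1771 and 1546 CPM and 1314, 1774 and 1437 CPM (-0.19, SE 0.19, edgeR adjusted p = 0.581). *Mybbp1a*, a repressor of MYB and p53 partner in the nucleolus, had 185, 208 and 193 CPM and 100.5, 117 and 184 CPM, with no overlap and no call (-0.55, SE 0.22, edgeR adjusted p = 0.109).

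*Myc* (chr15:61857227-61862223, plus strand) was low at both days, with 14.4, 8.54 and 8.65 CPM at day 5 and 15.7, 18.7 and 5.38 CPM at day 7. It was higher at day 7 in mice 1 and 2 and lower in mouse 3, and the groups overlapped (0.36, SE 0.38, edgeR adjusted p = 0.598). The SE was larger than the estimate.

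**Figure D3:**
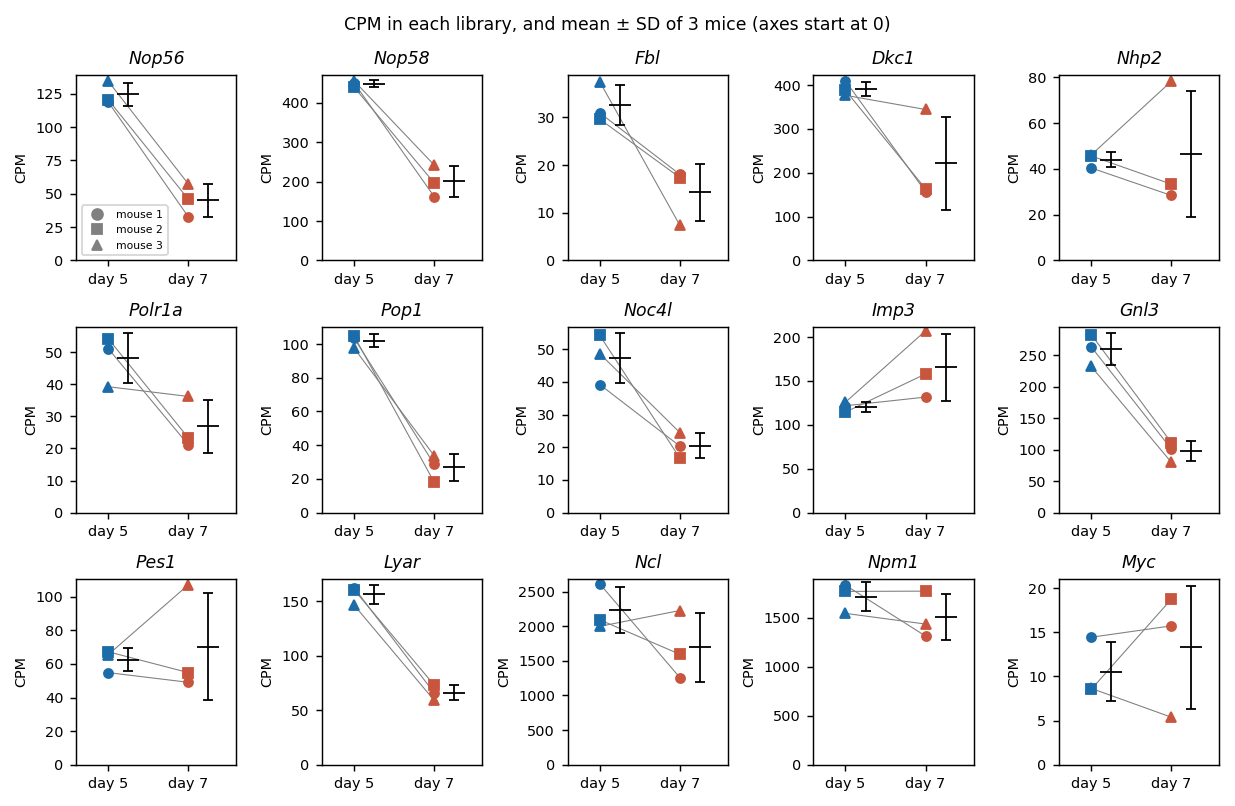
CPM of 15 members in each library (vertical axes from 0), with symbols for the 3 mice, grey lines between the days of a mouse, and the mean ± SD of 3 mice beside the points. *Nop56*, *Nop58*, *Pop1*, *Noc4l*, *Gnl3* and *Lyar* fall in every mouse, *Imp3* rises in every mouse without passing the threshold, and *Nhp2*, *Pes1*, *Ncl* and *Myc* go in different directions in different mice.

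The mice did not contribute evenly. Within mice 1, 2 and 3 the median log2 ratio of the 47 members, computed with 0.5 CPM added, stood at -0.91, -0.75 and -0.39, where all genes tested had medians of 0, 0.01 and 0. Members were lower at day 7 in 44, 42 and 38 of 47 cases. Day 7 mouse 3 was the highest day 7 library in 32 members and the lowest in 10, and the coefficient of variation was larger at day 7 than at day 5 in 42 members. The shares of all genes tested with these patterns were not computed, so the counts are not shown to be particular to the members. By class, the medians within mice 1, 2 and 3 were -1.07, -0.96 and -0.95 in snoRNP genes, -0.41, -0.47 and -0.41 in RNase MRP and P genes without *Rpp25*, and -0.90, -0.52 and -0.41 in small subunit genes. In RNA polymerase I, large subunit and general nucleolar genes the median in mouse 3 was -0.11, -0.31 and -0.11, against -0.91, -0.96 and -1.05 in mouse 1 and -1.20, -0.85 and -0.83 in mouse 2. The 11 other snoRNP factors, which are not members, had -0.42, -0.51 and 0.06 in mice 1, 2 and 3.

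The number of calls followed the libraries in the fit. It was 11, 8 and 10 without mouse 1, 2 and 3 of day 5, and 16, 12 and 32 without mouse 1, 2 and 3 of day 7. The share of all genes called in each of these fits was not computed, so the change in these counts is not shown to be particular to the members. *Nop56*, *Nop58*, *Nolc1*, *Pop1*, *Noc4l*, *Gnl3*, *Ebna1bp2* and *Lyar* kept their call whichever library was left out, with adjusted p-values of at most 0.00135 for *Pop1* and 0.04999 for *Ebna1bp2*. *Ddx21* held in 5 fits (adjusted p up to 0.0694 without day 5 mouse 2), *Nop9* and *Brix1* in 4, *Fbl* and *Bop1* in 3, *Gar1*, *Nop14* and *Noc3l* in 2. *Dkc1*, *Polr1a*, *Heatr1*, *Wdr12* and *Ftsj3* held in 1, that without day 7 mouse 3. Among the fits with all 6 libraries or with 1 left out, 11 members passed only without day 7 mouse 3. They were *Bysl*, *Ncl*, *Polr1b*, *Mphosph10*, *Rrp12*, *Mybbp1a*, *Ddx10*, *Grwd1*, *Rrp1b*, *Pop5* and *Noc2l*, with log2 fold changes from -1.39 for *Polr1b* to -0.63 for *Ddx10*. With the mouse as a block, 23 members fell past the threshold.

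**Figure D4:**
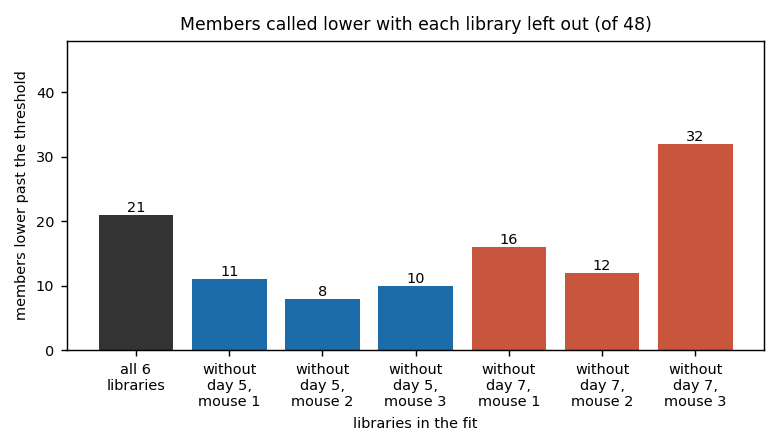
Number of the 48 members lower past the threshold (vertical axis) in the fit with all 6 libraries and in the 6 fits that leave out 1 library each. The count is 21 with all libraries, between 8 and 16 without any library but day 7 mouse 3, and 32 without that library.

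The other genes of the pathway, 137 by name, were taken by role. An ID was found and tested for 135 of them. Of these, 30 fell past the threshold and 1 rose, with a median log2 fold change of -0.38. Over all genes tested 4.82% fell and 7.22% rose, and of those with a mean of at least 10 CPM 7.56% fell. Every class held a fall, with 2 of 11 snoRNP factors, 1 of 12 RNA polymerase I genes, 1 of 6 RNase MRP and P proteins, 10 of 42 small subunit factors, 11 of 51 large subunit factors and 5 of 13 genes of the nuclear exosome. A class with 1 call cannot be set apart from the background. Among snoRNP factors, *Tcof1*, treacle, a partner of *Nolc1*, had -1.14 (SE 0.21, edgeR adjusted p = 0.00137), and *Ruvbl1*, an ATPase that assembles snoRNPs, -1.16 (SE 0.27, edgeR adjusted p = 0.00854). Of the RNA polymerase I genes, *Taf1d* of the promoter factor SL1 fell (-0.90, SE 0.22, edgeR adjusted p = 0.0101), and *Rpp21* of RNase P fell from 34.6, 41.7 and 34.2 CPM to 16.5, 10.1 and 12.2 CPM (-1.51, SE 0.26, edgeR adjusted p = 0.000973).

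In the small subunit class the smallest p-values belonged to *Nol10* (-1.41, SE 0.24), *Wdr75* (-1.07, SE 0.21) and *Wdr46* (-1.19, SE 0.28), all proteins of the SSU processome. In the large subunit class they belonged to *Ddx18*, a helicase (-1.70, SE 0.29), *Mak16* (-1.04, SE 0.19) and *Rpf2*, which brings in the 5S rRNA particle (-1.13, SE 0.20). In the exosome, which trims the 3′ end of 5.8S rRNA, they belonged to *Exosc8* (-1.51, SE 0.23), the nuclease *Dis3* (-1.24, SE 0.22) and *Exosc1* (-1.14, SE 0.22). *Nop53*, which guides the exosome to the precursor of 5.8S rRNA, was the only gene of the pathway past the threshold upward. It had 146, 148 and 159 CPM at day 5 and 268, 234 and 337 CPM at day 7 (0.89, SE 0.19, edgeR adjusted p = 0.00517), and it lost the call without day 5 mouse 2.

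Cytoplasmic ribosomal protein genes, the other component of the ribosome, had 84 of 87 tested, with 1 lower (*Rpl41*, -0.80), 1 higher (*Rpl27a*, 0.96) and a median of -0.08. Within mice 1, 2 and 3 their median log2 ratio was 0.03, 0.05 and -0.45, and in mouse 3 it was lower than the -0.39 of the members. The RNA polymerase III list had a median of -0.32, with *Bdp1* lower (-0.61, SE 0.19, edgeR adjusted p = 0.0436) and *Polr3gl* higher (1.54, SE 0.32, edgeR adjusted p = 0.00375) among 13. Non-coding snoRNA hosts had 2 lower (*Snhg3* and *Snhg17*) and 2 higher (*Gas5* and *Snhg18*) among 16. Beside these counts, 4.82% of all genes tested fell past the threshold and 7.22% rose.

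Of 9 genes of the MYC network that were tested, 4 rose and 0 fell in edgeR, also at an unadjusted p under 0.05 (median 0.38). The shares past the threshold over all genes tested were 7.22% higher and 4.82% lower. *Mxd1*, *Mxi1* and *Mnt* encode partners of MAX that repress genes bound by MYC. *Mxd1* had 17.3, 17.6 and 11.2 CPM at day 5 and 95.5, 94.8 and 30.4 CPM at day 7 (2.28, SE 0.35, edgeR adjusted p = 0.000312). Every day 7 value was above every day 5 value. *Mnt* had 15.3, 16.6 and 16.2 CPM at day 5 and 31.8, 38.5 and 38.2 CPM at day 7 (1.17, SE 0.24, edgeR adjusted p = 0.00344). *Mxi1* rose from 37.9, 44.7 and 47.6 CPM to 89.8, 78.1 and 74.4 CPM (0.90, SE 0.20, edgeR adjusted p = 0.00702), and *Mycl*, a paralog of *Myc*, from 16.1, 9.04 and 11.5 CPM to 24.5, 44.1 and 20.1 CPM (1.28, SE 0.32, edgeR adjusted p = 0.0135). The other 5 genes of the network were not called. Their log2 fold changes were 0.38 for *Mxd4*, 0.20 for *Mga*, -0.22 for *Max*, -0.23 for *Mlx* and -0.63 for *Mxd3*.

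Some of these calls depended on the libraries. Among the 6 fits with a library left out, the call held in 4 for *Ruvbl1*, *Taf1d* and *Mxi1*, in 3 for *Wdr46*, *Mycl* and *Snhg3*, in 4 for *Rpl41* and *Rpl27a*, in 2 for *Bdp1*, *Gas5* and *Snhg17* and in 1 for *Snhg18*. The other genes named in the pathway, apart from *Nop53*, and *Mxd1*, *Mnt* and *Polr3gl* held in all 6.

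The cycling cell markers fell together with the members. *Mki67* had 299, 280.2 and 229 CPM at day 5 and 112, 66.7 and 125 CPM at day 7 (-1.41, SE 0.23, edgeR adjusted p = 0.000459), and *Top2a* had -1.04 (SE 0.20, edgeR adjusted p = 0.00184). Their part in the fall of the members was not tested.

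**Figure D5:**
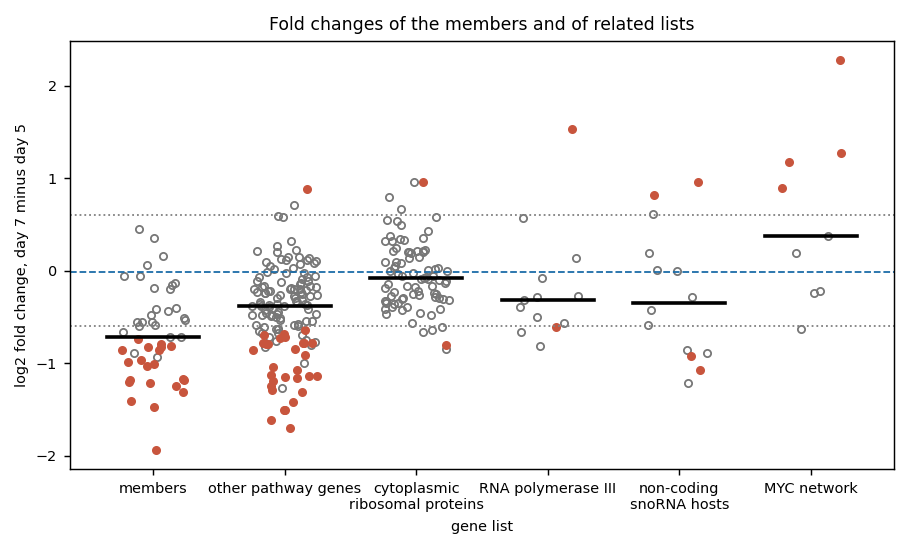
Log2 fold change of day 7 over day 5 (vertical axis) for each tested gene above 3 counts in the members and in 5 related lists, with red points past the threshold, black bars at the list medians, dotted lines at -0.6 and 0.6 and a dashed line at the median of all genes tested. The medians are -0.71 for the members, -0.38 for the other pathway genes, -0.08 for ribosomal proteins and 0.38 for the MYC network.

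Promoters were searched for the E-box bound by MYC and MAX, whose letters CACGTG read the same on both strands. The RefSeq windows, from 250 bases before to 50 after the start of a gene, cover 42 of the 48 members. CACGTG was present in 7 of the 42 (16.7%), in 11.4% of 10705 tested genes with a window and in 8.09% of all 27025 windowed genes. Of the 18 called members with a window, 0 held the motif, and the 7 holders were among the 24 that were not called. With only the bases before the RefSeq start, 3 of 42 members held it (7.14%), against 9.61% of the tested genes. The holders are shown with the E-box in capitals, 5′ to 3′ on the strand of the gene, as RefSeq has them for GRCm38.p6. Each window was found at 1 place in GRCm39, whose coordinates follow.
Imp4 promoter, chr1:34478762-34478821, plus strand: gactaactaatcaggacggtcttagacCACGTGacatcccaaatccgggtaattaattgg
Nop2 promoter, chr6:125108759-125108818, plus strand: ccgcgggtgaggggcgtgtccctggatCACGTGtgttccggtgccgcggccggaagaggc
Rrn3 promoter, distal, chr16:13598321-13598380, plus strand: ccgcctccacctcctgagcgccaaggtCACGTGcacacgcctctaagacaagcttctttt
Rrn3 promoter, proximal, chr16:13598488-13598547, plus strand: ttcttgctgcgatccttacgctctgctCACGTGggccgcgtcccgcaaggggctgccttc
Pes1 start, chr11:3913965-3913994, plus strand: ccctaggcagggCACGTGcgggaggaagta
Tsr1 start, chr11:74788918-74788947, plus strand: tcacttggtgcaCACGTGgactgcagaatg
Grwd1 start, chr7:45480164-45480191, minus strand: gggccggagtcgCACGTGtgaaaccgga
Mybbp1a start, chr11:72332181-72332202, plus strand: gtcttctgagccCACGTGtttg

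Counted from the RefSeq start, the first base of the motif lies 121 bases before it in *Imp4*, 60 in *Nop2*, and 215 and 48 in *Rrn3*, the only member with 2 copies. In *Pes1*, *Tsr1*, *Grwd1* and *Mybbp1a* it lies after that start, at bases 3, 25, 35 and 41. The GENCODE start of the gene differs. Counted from it, the motif lies 30 bases before the start in *Nop2* and 28 in the distal copy of *Rrn3*. It lies after the GENCODE start in the others, at base 222 in *Imp4*, 140 in the proximal copy of *Rrn3*, 40 in *Pes1*, 937 in *Tsr1*, 190 in *Grwd1* and 125 in *Mybbp1a*. None of these 7 genes was called, and their log2 fold changes ran from -0.71 for *Nop2*, close to the median of the members, to 0.16 for *Pes1*. *Grwd1* and *Mybbp1a* passed the threshold without day 7 mouse 3. A match is a description of the sequence and not a site of binding.

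Some members are also host genes, whose introns release snoRNAs. In the GENCODE vM39 annotation 6 members contain 18 snoRNA genes, 5 in *Nop56*, 4 in *Nop58*, 3 in *Gnl3*, 3 in *Ncl*, 2 in *Tsr1* and 1 in *Dkc1*. Of the 6 hosts 4 were called, with a median log2 fold change of -0.995, and of the other 42 members 17 were called (-0.69). That last median includes *Rpp25*, which is below the limit of 3 counts. The reads came from polyadenylated 3′ ends, so they measure the host mRNA and not the snoRNAs.

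Where reads could be shared, the assignment of a count is less certain. Exons of 35 members overlap exons of a gene on the opposite strand, and without a stated strand setting reads from the 2 cannot be told apart. In 20 members at least 100 of the last 500 bases match another gene with at least 95% identity. *Npm1* and *Nop58* matched 14 and 75 other genes, over at most 444 and 164 bases. Both strands were searched, so some matches, such as that of *Dkc1* to *Mpp1*, are to a gene already counted as an opposite-strand overlap. Of the 21 called members, 15 have an opposite-strand overlap, and *Gar1*, *Nolc1*, *Pop1*, *Noc4l* and *Noc3l* have neither an overlap nor such a match.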

How the data were processed

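Polyadenylated RNA of mSGOs was converted to QuantSeq 3′ libraries and sequenced by the authors. Each deposited file holds raw read counts per Ensembl gene ID of 1 library. The authors aligned to GRCm39. The aligner, annotation release, strand setting and handling of reads with several matches are not given in the sources used here. Entries that name no gene were left out. Names and coordinates came from GENCODE vM39 by ID, which matched 43465 of 47643 IDs.

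Day 7 was set against day 5 in edgeR 4.0.16 (R 4.3.3), which the study's methods name, with TMM scaling and the two-sided quasi-likelihood test (robust = FALSE, no term but day). A gene entered with 1 or more counts in 2 or more libraries. Benjamini-Hochberg adjustment covered the 15792 genes tested. The SE is the log2 fold change divided by the square root of F. CPM are counts per 1000000 of the TMM-scaled library. The script was tested on simulated data. A gene with no count could hold up to 3 counts, 1.06 to 1.56 CPM by library totals without TMM, which covers counting error only.

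Libraries with the same mouse number come from the same mouse, per the labels. Deviations from the day mean correlated at 0.14, -0.10 and 0.16 within mice 1, 2 and 3, over the 8172 genes that averaged 10 CPM or more. Alternatives were DESeq2 1.42.0, limma 3.58.1 voom, other scalings, filters and minimum fold changes, a mouse block, and each library left out. Shared 3′ ends were found with blastn 2.17.0.

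The members, the gene lists and the tests were chosen with earlier results of these data known. All members are named. Values in every library were given for the members past the threshold and for those with the highest level in a class, for *Myc*, and for members chosen after their values were seen (*Nhp2*, *Nop10*, *Pop4*, *Imp3*, *Pes1*, *Nop16*, *Npm1* and *Mybbp1a*). *Snu13* was also added then. Other genes were named for the smallest p past the threshold, up to 3 a class or list, and for any rise in the pathway. All 9 tested genes of the MYC network were named.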

Additional observations from a re-analysis of the deposited data

How the results depend on the processing

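No member rose past the threshold under any alternative. The number of members that fell was 19 to 24 with other scalings, filters, robust dispersion, DESeq2, limma voom or the replicate block, which gave 23, and 12 when the minimum fold change was set to 1 on the log2 scale. With each library left out it was 8 to 32, and the median ran from -0.85 to -0.61. The share of all genes called in those fits was not computed. Other pathway genes lower at day 7 numbered 37 with the replicate block, 40 with library totals only, 16 with a minimum of 1, and 13 to 44 with a library left out. Those higher numbered 0 with a minimum of 1 and 0 to 2 with a library left out. The direction changed in 5 members that were not called. *Nhp2* was at -0.033 with library totals only, -0.11 with limma voom and -0.044 with the replicate block. With a library left out *Nhp2* ran from -0.51 to 0.32, *Pop4* from -0.18 to 0.063, *Pop7* from -0.30 to 0.011, *Pes1* from -0.27 to 0.36 and *Nop16* from -0.40 to 0.14. *Dkc1* lost its call with robust dispersion and filterByExpr, *Gar1* with filterByExpr. The cause was not tested. The replicate block added *Polr1b* and *Rrp12* and ended no member's call. The summed CPM of the members was 65.5% of day 5 with library totals only. Leaving out a library leaves 2 in its day. Genes near 10 CPM rest on few counts, such as the 76 of *Myc* over the day 5 libraries and 106 over those of day 7.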

Other observations

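*Nop56* and *Wdr12* had the same count in each day 7 library, 85, 132 and 117 in mice 1, 2 and 3, and different counts at day 5 (288, 240 and 373 for *Nop56*; 199, 171 and 194 for *Wdr12*). The genes lie on different chromosomes, 2 and 1. They were noticed after the values were seen, and the cause was not tested.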
